A study of Mus musculus with 2 samples.

Results

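Solute carriers are the genes named Slc followed by a family number. On 2 two-colour Agilent arrays, 326 such gene names were present. Of these, 8 well-known erythroid iron, anion and glucose carriers were left out by name (Slc4a1, Slc25a37, Slc25a38, Slc25a28, Slc40a1, Slc11a2, Slc2a1 and Slc2a3), and 106 had no probe well above background in the same channel on both arrays. The remaining 212 members, each represented by its brightest probe, are described here among 16638 genes and transcripts tested. Of the 212, 4 carry a family name without being carriers (Slc9a3r1, Slc9a3r2, Slc7a6os and the Slc4a1 adaptor Slc4a1ap), and they are counted in their families' groups.

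Each array compared RNA from G1E-ER-GATA-1 cells given siRNA against ETO2 with RNA from the same line given a control siRNA. G1E-ER-GATA-1 is a mouse line without its own GATA-1, the master regulator of red cell genes, into which an oestrogen receptor fusion of GATA-1 was introduced. Cells of both groups received β-estradiol for 24 h, which activates the fusion protein and starts erythroid maturation, so both groups hold active GATA-1. ETO2, encoded by Cbfa2t3, is a corepressor found in GATA-1 complexes, and the comparison asks which transcripts depend on it during maturation. The control RNA carried Cy5 and the ETO2 siRNA RNA carried Cy3 on both arrays, so a dye effect on a probe and an effect of the siRNA cannot be told apart. Whether the 2 arrays were made from separate cultures is not in the labels, so the p-values cover the spread of these 2 hybridisations, which may be technical. The labels describe 1 cell line and do not say whether it is a clone or what drives the fusion gene.

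Solute carriers move amino acids, sugars, nucleotides, metals, ions, vitamins and metabolites across the plasma membrane and the membranes of mitochondria, Golgi and lysosomes. A family number groups proteins of related sequence, and members of a family often share a class of substrate. Maturing red cells are known for heavy demands on glycine, iron and mitochondrial exchange for haem synthesis, and for the ion and anion transport of the red cell membrane.

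The targeted gene, read from the brightest of its 2 kept probes, was lower in the ETO2 siRNA channel on both arrays. Its log2 ratio (ETO2 siRNA over control siRNA, as everywhere below) was -0.39 on array 1 and -0.46 on array 2, a fall by 0.42 ± 0.05 (SD, n = 2) on the log2 scale or 1.34-fold (limma, Benjamini-Hochberg adjusted p = 8.58e-05). Its signal in the control channel was 13.31 and 13.27 on the log2 scale. The gene's other probe and its values under other scalings are not given here. The labels give the tissue as erythroid and the cell type as murine ES cells. Of 10 erythroid marker genes on the array all 10 were detected, whereas 4 of 5 embryonic stem cell markers (Pou5f1, Nanog, Sox2 and Zfp42) had no probe well above background and Utf1 did. All 5 mast cell markers on the array were detected, with 2 higher and 1 lower. Of 5 detected megakaryocyte markers 1 was higher, and 3 of 6 granulocyte and macrophage markers were detected, with 1 lower. All 10 erythroid markers passed higher with ETO2 siRNA, against 18.4% of all genes. However, Hbb-b1 and Hba-a1 were saturated in both channels and Eraf in the control, so their ratios do not measure a change. The other 7 were measured in both channels, and the smallest rises among them were those of Klf1 (0.25) and Tfrc (0.27). Marker values under the other scalings described below are not given here. The part of other cell types in the results was not tested, and in bulk RNA a change in the share of cells and a change in RNA per cell cannot be told apart. In scanner units the median spot read 80.6 and 75.4 for ETO2 siRNA and 100.6 and 100.8 for the control, over local backgrounds of 44 to 47.

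Most solute carrier genes had small log2 ratios as measured here, and the few larger changes went both ways. With an adjusted p under 0.05, 31 of 212 members (14.6%) were higher and 48 (22.6%) were lower with ETO2 siRNA, and 133 did not pass. The median log2 signal of those 133 was 7.49, against 11.6 for members higher and 9.14 for members lower. With a normexp offset of 0, 31 members passed higher and 41 lower. There the dim probes of Slc4a3 and Slc7a11 read 1.18 and 0.34, and those of Slc12a2 and Slc46a1 read 0.03 and 0.04. The part of dim signal in the small ratios was not tested. Across all 16638 genes, 18.4% were higher and 22.3% lower (40.7% in either direction, against 37.3% of members), so the members' shares lay near those of the array as a whole. Of the 79 members that passed, 70 (88.6%) changed by less than 1.5-fold. At least 1.5-fold changes were found for 4 members upward (1.89%, against 1.68% of all genes) and 5 downward (2.36%, against 1.79%). The members' median log2 ratio was -0.02, as was that of all genes. The quartiles of the members were -0.16 and 0.09, and the whole range ran from -0.82 to 0.81. The sign was the same on both arrays for 160 of 212 members, against 13144 of 16638 genes. It was the same for 79 of the 79 that passed, but passing was decided from these same ratios, so that count adds no support. Pearson's r between the arrays was 0.84 across members and 0.86 across all genes, and Spearman's rho was 0.77 and 0.80. Genes on an array are not independent replicates, and both arrays carry the dyes the same way round.

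**Figure D1:**
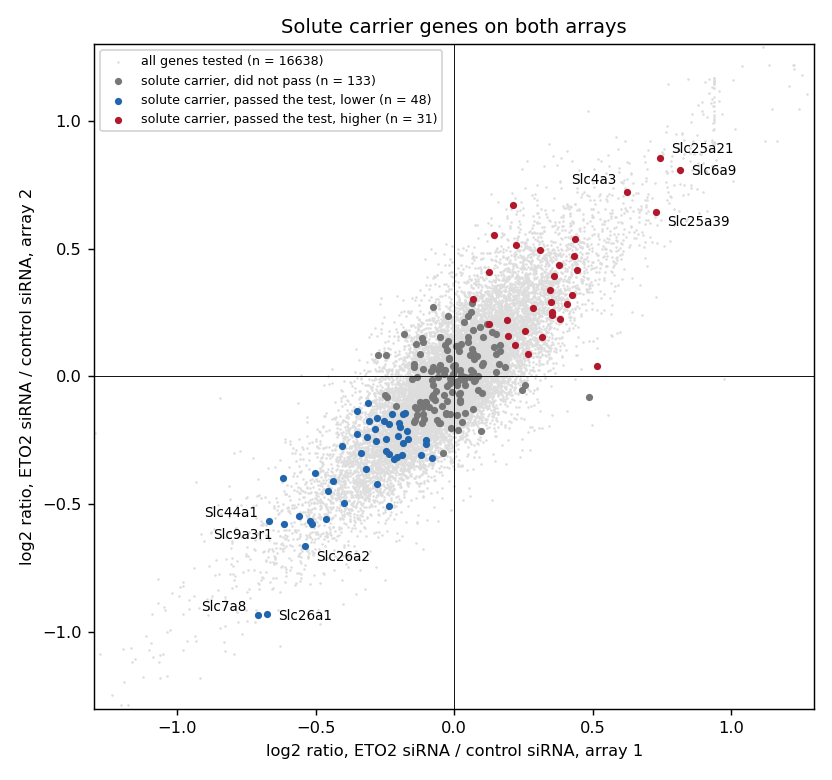
Log2 ratio of ETO2 siRNA over control siRNA on array 1 (x axis) and array 2 (y axis) for the 212 solute carrier genes and, in light grey, all 16638 genes tested, with both axes ending at 1.3. Red points are the 31 members that passed higher and blue points the 48 that passed lower, and the labelled genes are the 9 that changed at least 1.5-fold, 4 at the upper right and 5 at the lower left; under median centring 7 members passed higher and 133 lower.

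The direction of the smaller changes depended on how the arrays were scaled. Centring each array on its median without removing the intensity trend moved the median of all genes to -0.31 and that of the members to -0.29. Under that scaling 7 members passed higher and 133 lower, and higher calls fell from 45.2% to 4.12% of all calls on the array and from 39.2% to 5% of calls among members. There, 2.8% of all genes passed higher and 65.1% lower, near the members' 3.3% and 62.7%. The scanner software's own dye-normalized signals gave 12 members higher and 18 lower, of which 9 and 17 were the same genes as above, against 7.22% higher and 7.71% lower of all genes. Members that passed higher had brighter probes (median log2 signal 11.6) than those that passed lower (9.14) or did not pass (7.49). Over all genes these medians were 10.9, 10.2 and 8.01. The part of signal level in the direction of the calls was not tested.

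**Figure D2:**
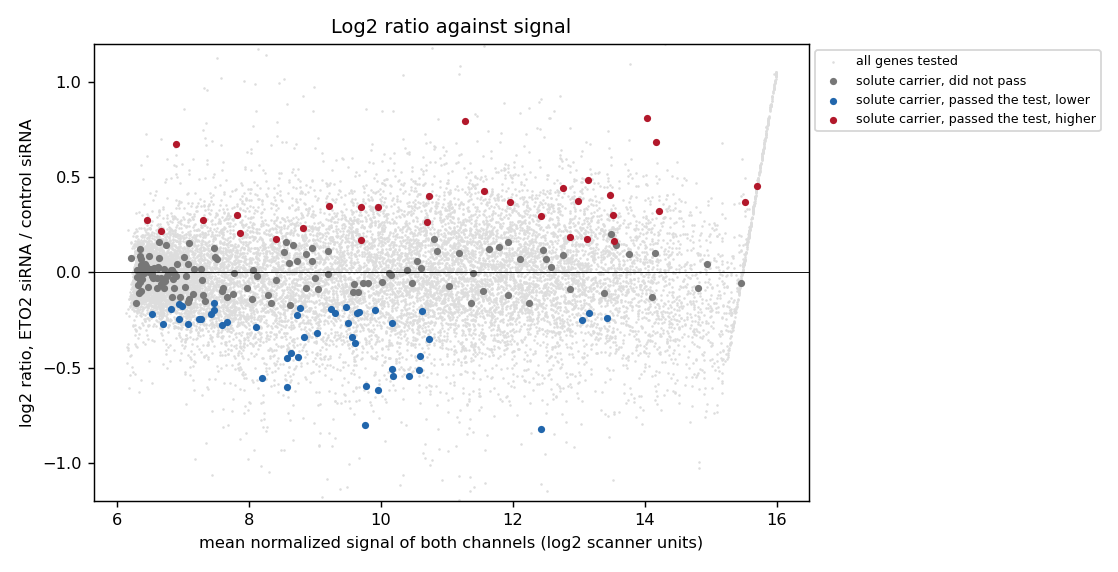
Mean normalized log2 signal of both channels (x axis) against the mean log2 ratio of 2 arrays (y axis, limits -1.2 and 1.2) for solute carrier genes and all genes. Red points (passed higher, 31) reach the bright end and blue points (passed lower, 48) are mostly of middle signal; the slanted line of grey points at the right is mostly probes saturated in the control channel, and under median centring 7 members passed higher and 133 lower.

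Among the 212 members the largest rise was in Slc6a9, the glycine transporter GlyT1, which supplies glycine for haem synthesis in erythroid cells. Its normalized log2 signal was 14.45 and 14.43 in the ETO2 siRNA channel and 13.63 on both arrays in the control channel. Both ETO2 siRNA values lay above both control values. The log2 ratio was 0.82 and 0.81, a rise of 0.81 ± 0.0054 (SD, n = 2) or 1.76-fold (limma, adjusted p = 1.31e-07). Genes were named with these values known, so the separation of the channels, here and below, is a description.

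Slc25a21, the mitochondrial carrier of oxodicarboxylates, measured 11.54 and 11.80 with ETO2 siRNA and 10.80 and 10.95 in the control. The channels did not overlap, and the rise was 0.80 ± 0.08 (SD, n = 2), 1.74-fold (limma, adjusted p = 2.05e-07). Slc25a39, the mitochondrial glutathione importer, measured 14.45 and 14.58 against 13.72 and 13.94. This was again higher on both arrays without overlap, by 0.69 ± 0.06 (SD, n = 2) or 1.61-fold (limma, adjusted p = 9.47e-07), and a separate probe of the gene gave 0.68. Slc4a3, an anion exchanger best known from heart and brain, rose by 0.67 ± 0.07 (SD, n = 2), 1.60-fold (limma, adjusted p = 1.18e-06), at a dim signal of 7.17 and 7.31 against 6.54 and 6.58. For this dim probe the log2 ratio was 1.18 with a normexp offset of 0 and 1.21 on the processed signals. Under median centring these 4 genes kept a positive log2 ratio, at 0.22 for Slc6a9, 0.32 for Slc25a21, 0.09 for Slc25a39 and 0.57 for Slc4a3. Only the value of Slc25a39 among these 4 did not pass there (adjusted p = 0.341), and it lay 0.40 above the all-gene median.

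The largest fall among members was in Slc7a8, the light subunit of the neutral amino acid exchanger LAT2. Its log2 signal was 12.02 and 12.03 with ETO2 siRNA and 12.73 and 12.96 in the control. Values with ETO2 siRNA were lower on both arrays, by 0.71 and 0.93, and the mean log2 ratio was -0.82 ± 0.16 (SD, n = 2), a 1.77-fold fall (limma, adjusted p = 3.37e-07).

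Both sulphate transporters of family 26 that passed were lower. Slc26a1, the sulphate and oxalate exchanger SAT1, measured 9.18 and 9.55 with ETO2 siRNA against 9.86 and 10.48, a log2 ratio of -0.80 ± 0.18 (SD, n = 2; limma, adjusted p = 5.78e-07). Slc26a2, the sulphate transporter of cartilage, measured 8.33 and 8.21 against 8.87 on both arrays, a log2 ratio of -0.60 ± 0.09 (SD, n = 2; limma, adjusted p = 4.01e-06). The channels did not overlap for either gene, and the other 5 of 7 family members did not pass. The share lower in the family was 28.6%, against 22.3% of all genes. A dimmer probe of Slc26a1 gave a smaller log2 ratio of -0.19.

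Slc44a1, the choline transporter CTL1, measured 9.60 and 9.70 against 10.27 and 10.26, and its log2 ratio was -0.62 ± 0.07 (SD, n = 2; limma, adjusted p = 2.84e-06). Slc9a3r1, which is not a carrier but the scaffold protein NHERF1 that anchors membrane transporters, measured 9.47 and 9.50 against 10.08 on both arrays. Its log2 ratio was -0.60 ± 0.03 (SD, n = 2; limma, adjusted p = 3.22e-06). For both genes every ETO2 siRNA value lay below every control value. These 5 falls of at least 1.5-fold passed under all 9 other settings that give a test, as did the rises of Slc6a9, Slc25a21 and Slc4a3. Apart from the mean of all probes, each of these settings reads a gene from 1 probe, so they say little about agreement between probes. A separate, dim probe of Slc44a1 gave a log2 ratio of 0.01.

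**Figure D3:**
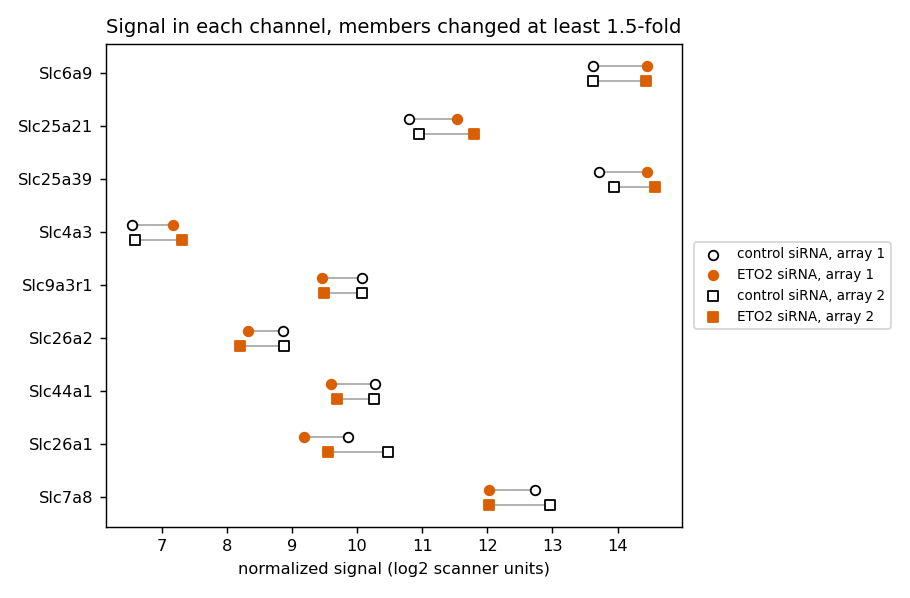
Normalized log2 signal (x axis) of the 9 solute carrier genes that changed at least 1.5-fold, in each channel of each array; open symbols are control siRNA, filled symbols ETO2 siRNA, circles array 1 and squares array 2. The filled symbols lie to the right for the upper 4 genes and to the left for the lower 5, without overlap, from about 6.54 for Slc4a3 in the control to 14.58 for Slc25a39 with ETO2 siRNA. The 9 genes were chosen by these same values, so the separation follows in part from the choice.

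Among 37 carriers of amino acids and peptides, 5 (13.5%) rose and 6 (16.2%) fell, against 18.4% and 22.3% of all genes. These counts were 3 and 19 under median centring and 3 and 3 on the processed signals. The group's median log2 ratio was -0.02. Beside Slc6a9, the rises included Slc38a2 and Slc38a5, carriers of glutamine and other small neutral amino acids. Slc38a2 rose by 0.21 and 0.67 on the 2 arrays, a mean of 0.44 ± 0.32 (SD, n = 2; limma, adjusted p = 0.000806). This SD compares with a median SD of 0.06 over the members, and the other 3 probes of Slc38a2 gave -0.12, -0.05 and 0.18. It did not pass on the processed signals (0.25, adjusted p = 0.242). Slc38a5 was among the brightest members, at 15.73 and 15.67 against 15.31 and 15.35, and rose by 0.37 (limma, adjusted p = 0.000308). Slc38a5 itself was not saturated, but these signals lie close to the 15.53 and 15.42 at which the control channel of Slc25a5, described next, was saturated; the part of the scanner's upper limit in this value was not tested. Slc43a2, the neutral amino acid carrier LAT4, fell by 0.44 ± 0.09 (SD, n = 2; limma, adjusted p = 7.49e-05). A dimmer probe of Slc43a2 gave a smaller log2 ratio of -0.12. Of the other amino acid carriers known from growing cells, Slc7a5 (0.16), its partner Slc3a2 (-0.13), the cystine carrier Slc7a11 (0.12) and the glutamine carrier Slc1a5 (0.18) did not pass. The value of Slc7a11 was 0.48 on the processed signals, and it passed with an offset of 0 (0.34, limma, adjusted p = 0.0247) and under median centring (0.19, adjusted p = 0.0247). Its probe was dim, at a mean log2 signal of 6.345, and its control channel was well above background on only 1 array.

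Of 34 mitochondrial carriers (family 25), 6 (17.6%) passed higher, among them the saturated Slc25a5, and 8 (23.5%) fell. Both shares lay near the 18.4% and 22.3% of all genes. Under median centring the counts were 2 and 26, and on the processed signals 4 and 2. The falls were small, the largest being that of the aspartate and glutamate carrier Slc25a12 at -0.24 ± 0.09 (SD, n = 2; limma, adjusted p = 0.00759), so both changes of at least 1.5-fold in the family were the rises of Slc25a21 and Slc25a39. Slc25a40, the close relative of Slc25a39, had a log2 ratio of -0.10 and -0.26 on the 2 arrays, with a mean of -0.18 ± 0.12 (SD, n = 2; limma, adjusted p = 0.0364). Neither Slc25a12 (-0.26, adjusted p = 0.0975) nor Slc25a40 (-0.25, adjusted p = 0.115) passed on the processed signals, or with the mean of all probes. Slc25a5, the adenine nucleotide translocator ANT2, measured 15.96 and 15.89 against a control that was saturated on both arrays, so its log2 ratio of 0.45 (limma, adjusted p = 4.41e-05) compares with a control known only as a lower bound. It is counted as passed higher but is not described as a rise. Slc25a4, the translocator ANT1 of muscle, stood at -0.08 (not passed).

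Carriers of nucleosides and nucleotide sugars were lower more often than higher, with 3 of 22 (13.6%) up and 8 (36.4%) down. Of all genes, 18.4% were up and 22.3% down. Under median centring the group's counts were 0 and 16, and on the processed signals 0 and 5. In family 35, which brings nucleotide sugars into Golgi and endoplasmic reticulum for glycosylation, 3 of 17 rose and 7 (41.2%) fell, against 22.3% of all genes lower; under median centring 0 rose and 14 (82.4%) fell, against 65.1% of all genes, and on the processed signals 0 and 4. Slc35b4, which carries UDP-xylose and UDP-N-acetylglucosamine, measured 9.94 and 9.88 with ETO2 siRNA against 10.45 and 10.46, a log2 ratio of -0.54 ± 0.05 (SD, n = 2; limma, adjusted p = 8.33e-06). Slc35a3, a carrier of UDP-N-acetylglucosamine, measured 10.38 and 10.26 against 10.84 and 10.81, a log2 ratio of -0.51 ± 0.07 (SD, n = 2; limma, adjusted p = 1.71e-05). Slc35a1, the CMP-sialic acid carrier, measured 8.55 and 8.48 against 8.95 and 8.98, a log2 ratio of -0.45 ± 0.07 (SD, n = 2; limma, adjusted p = 5.81e-05). In all 3 the channels did not overlap, but other probes of 2 of them gave other values. These were 0.18 and 0.04 for Slc35a3 and -0.08 and -0.0022 for Slc35b4. Slc35c1, the GDP-fucose carrier, went the other way, at 13.27 and 13.09 against 12.91 and 12.69, a rise of 0.38 ± 0.02 (SD, n = 2; limma, adjusted p = 0.000223). On the processed signals Slc35a1 (-0.18, adjusted p = 0.184) and Slc35c1 (0.31, adjusted p = 0.0594) did not pass, and under median centring Slc35c1 stood at -0.17, which was 0.13 above the all-gene median. With the mean of all its probes Slc35a3 stood at -0.10 and did not pass (adjusted p = 0.194). The equilibrative nucleoside transporter Slc29a1 stood at 0.13 (not passed).

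Metal carriers also passed downward more often than upward, with 8 of 23 lower (34.8%, against 22.3% of all genes) and 4 higher (17.4%, against 18.4%). Under median centring 18 (78.3%, against 65.1% of all genes) were lower and 0 higher, and on the processed signals 1 and 1. Of the 12 zinc importers of family 39, 5 (41.7%) fell and 2 (16.7%) rose, against 22.3% and 18.4% of all genes. Under median centring 9 fell and 0 rose, and on the processed signals 1 and 1. Slc39a4, the zinc importer ZIP4, measured 10.10 and 10.22 against 10.62 and 10.79, a log2 ratio of -0.54 ± 0.03 (SD, n = 2; limma, adjusted p = 8.16e-06). Slc30a7, which loads zinc into the Golgi, had a log2 ratio of -0.45 on both arrays (limma, adjusted p = 4.36e-05). Slc30a10, a manganese exporter, measured 13.24 and 13.53, above the control by 0.44 and 0.54 on the 2 arrays, and rose by 0.49 ± 0.07 (SD, n = 2; limma, adjusted p = 2.68e-05), with 0.51 from its other probe. The ETO2 siRNA values of Slc30a10 lay above both control values, while those of Slc39a4 lay below both. On the processed signals Slc30a7 (-0.24, adjusted p = 0.0957) and Slc30a10 (0.35, adjusted p = 0.0514) did not pass. Slc39a8, the zinc and manganese importer ZIP8, rose by 0.16 (limma, adjusted p = 0.0493) but did not pass with an offset of 0 (adjusted p = 0.152), and the plasma membrane zinc exporter Slc30a1 stood at -0.10 (not passed).

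Among 30 carriers of sugars, monocarboxylates and organic phosphates, 3 (10%) rose and 6 (20%) fell, against 18.4% and 22.3% of all genes. Under median centring 1 rose and 18 fell, and on the processed signals 1 and 1. All 3 rises were in family 16, of which 8 members were measured and 2 fell (37.5% higher and 25% lower). Under median centring the values of these 3 rises were below 0, at 0.26 (Slc16a10), 0.03 (Slc16a6) and -0.05 (Slc16a1) from the all-gene median. Slc16a10, the aromatic amino acid carrier TAT1 of that family, measured 10.88 and 10.98 against 10.57 and 10.49 and rose by 0.40 ± 0.13 (SD, n = 2; limma, adjusted p = 0.000234). Slc16a6 rose by 0.32 ± 0.04 (SD, n = 2; limma, adjusted p = 0.000848), and the lactate carrier Slc16a1 by 0.18 ± 0.17 (SD, n = 2; limma, adjusted p = 0.0442). Slc16a13 measured 7.92 on both arrays against 8.48 and 8.47, a log2 ratio of -0.55 ± 0.01 (SD, n = 2; limma, adjusted p = 6.53e-06). The channels of Slc16a13 did not overlap. Dimmer probes of Slc16a10 gave smaller log2 ratios of 0.12 and 0.13. On the processed signals Slc16a10 (0.21, adjusted p = 0.157), Slc16a6 (0.18, adjusted p = 0.168) and Slc16a1 (0.19, adjusted p = 0.203) did not pass.

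Of 34 carriers of inorganic ions, bicarbonate and protons, 5 (14.7%) rose and 8 (23.5%) fell, against 18.4% and 22.3% of all genes. Under median centring 1 rose and 20 fell, and on the processed signals 2 and 5. Slc12a4, the potassium and chloride cotransporter KCC1, which is known to regulate red cell volume, measured 11.75 and 11.79 against 11.31 and 11.38 and rose by 0.43 ± 0.02 (SD, n = 2; limma, adjusted p = 7.15e-05). Values with ETO2 siRNA lay above both control values. On the processed signals its log2 ratio was 0.25 and did not pass (adjusted p = 0.0926), and under median centring it was -0.059, which was 0.25 above the all-gene median. The sodium, potassium and chloride cotransporter Slc12a2 (0.01) and the phosphate carrier Slc20a1 (0.14) did not pass, although Slc20a1 stood at 0.45 on the processed signals and passed there (limma, adjusted p = 0.0335).

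Of 8 vitamin, haem and folate carriers, 3 (37.5%) rose and none passed lower, against 18.4% and 22.3% of all genes. Under median centring 0 passed higher and 2 lower, and on the processed signals 0 and 0. The group's median log2 ratio was 0.11. Slc46a3, a lysosomal relative of the folate carrier, measured 13.63 and 13.71 against 13.25 and 13.27 and rose by 0.41 ± 0.04 (SD, n = 2; limma, adjusted p = 0.000118). The reduced folate carrier Slc19a1 rose by 0.27 ± 0.20 (SD, n = 2; limma, adjusted p = 0.00826) at its brightest probe, with 0.12 and 0.41 on the 2 arrays. Its other probe gave -0.61, and with the mean of both probes Slc19a1 passed lower (-0.17, limma, adjusted p = 0.035). Slc23a3 rose by 0.24 ± 0.12 (SD, n = 2; limma, adjusted p = 0.00967). On the processed signals Slc46a3 (0.22, adjusted p = 0.125), Slc19a1 (0.25, adjusted p = 0.152) and Slc23a3 (0.17, adjusted p = 0.235) did not pass. The proton-coupled folate carrier Slc46a1 stood at 0.02 (not passed).

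Of the 24 members that carry lipids, choline, bile acids, organic ions and other solutes, 2 (8.33%) rose and 4 (16.7%) fell. Of all genes, 18.4% were higher and 22.3% lower. Under median centring the group's counts were 0 and 14, and on the processed signals 1 and 1. Beside Slc44a1, the fatty acid transport protein Slc27a1 fell by 0.34 ± 0.03 (SD, n = 2; limma, adjusted p = 0.000515). The organic anion carrier Slc22a8 rose by 0.34 ± 0.09 (SD, n = 2; limma, adjusted p = 0.000573), from 9.67 and 9.90 in the control to 10.07 and 10.19. Neither Slc27a1 (-0.19, adjusted p = 0.163) nor Slc22a8 (0.19, adjusted p = 0.176) passed on the processed signals.

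**Figure D4:**
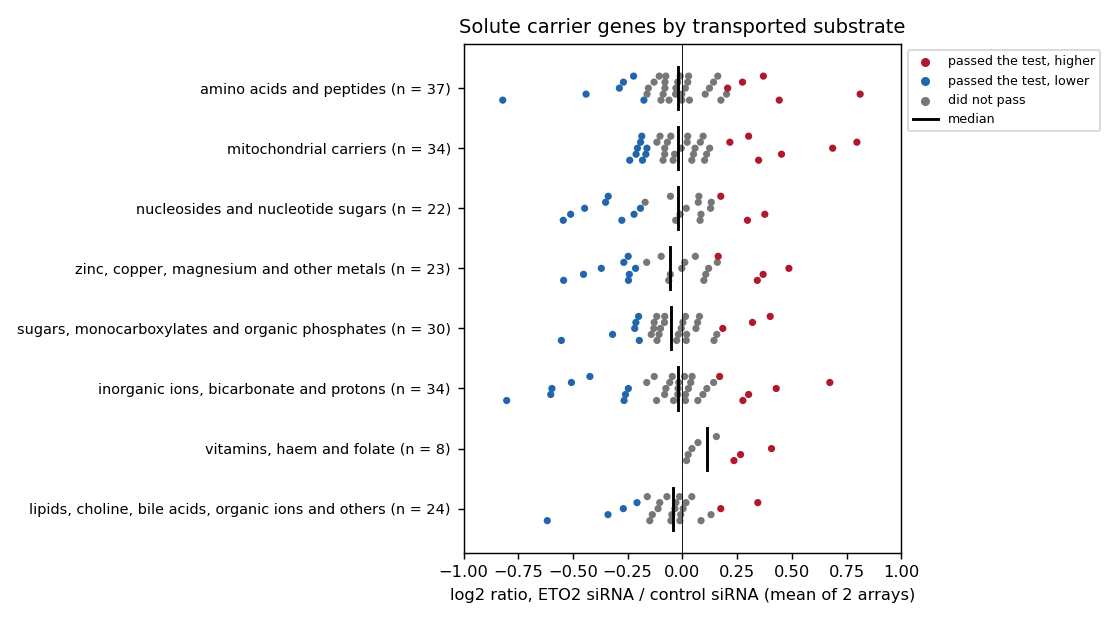
Mean log2 ratio of 2 arrays (x axis) for the 212 solute carrier genes in 8 substrate groups, 1 point per gene, with the group median as a black bar; red and blue points passed higher and lower. Medians lie between -0.055 and 0.113, and the 8 vitamin, haem and folate carriers lie at or above 0.0188; under median centring the members' median moves to -0.29 and 133 of them pass lower.

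A list of 27 carriers known from red cells or their precursors, which repeats genes named above, held 22 members, with a probe well above background. Of these 10 (45.5%) passed higher and 2 (9.09%) lower, against 18.4% and 22.3% of all genes, and their median was 0.16 against -0.02. Under median centring 2 passed higher and 14 (63.6%) lower, against 65.1% of all genes lower, and on the processed signals 6 and 1. Under median centring the list's median was 0.03 above that of all genes. Those higher were the saturated Slc25a5 and 9 others, namely Slc6a9, Slc25a39, Slc30a10, Slc12a4, Slc16a10, Slc38a5, Slc19a1, Slc16a1 and Slc39a8, and the lower ones included Slc44a1. Another 4 (Slc43a1, Slc14a1, Slc22a4 and Slc12a7) had no probe well above background, and the haem transporter Slc48a1 was not analysed here under that name. Members and list were chosen with these results known, so the count is a description.

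Probes of 1 gene often disagreed, which bears on every value above that rests on 1 probe. Of 67 members with more than 1 kept probe, 28 had probes of opposite sign, including 3 of 12 that passed higher and 9 of 18 that passed lower. Among those that passed, the 3 higher were Slc19a1, Slc38a2 and Slc25a46, and the 9 lower were Slc35a3, Slc44a1, Slc10a7, Slc35e1, Slc2a8, Slc22a6, Slc29a3, Slc25a40 and Slc25a29. Of the 37 with several probes that did not pass, 16 had probes of opposite sign, among them Slc20a1, Slc30a1, Slc31a1, Slc35a2 and Slc41a1. The sequences show the probes of 3 members that disagreed most among the genes named above and of 1 that did not; each line is the first 30 of the probe's 60 bases, 5′ to 3′, with no base marked, and the probes of a gene share no run longer than 5 bases with its brightest one.
Slc19a1 brightest: caggccactgcgagtctgggttgtctattg
Slc19a1 dimmer: cagttgcgtcctggggaaagcttcatcaca
Slc35a3 brightest: cttatcccatgttcttaaccttaccctttc
Slc35a3 middle: gtttctatggaatgacacagaagttcatat
Slc35a3 dimmest: aggttactttttgttgctaaggtctaggta
Slc44a1 brightest: atgattcaccagaaattaacatctaacatc
Slc44a1 dimmer: attattgctacagagataactgccctgtag
Slc25a39 brightest: cgcctcccgaattcaagaccaaatctgatg
Slc25a39 dimmer: gttcactggcaccttggatgcctttgtgaa
The Slc19a1 probes gave log2 ratios of 0.27 and -0.61, at log2 signals of 10.7 and 8.29. Those of Slc35a3 gave -0.51, 0.18 and 0.04, and those of Slc44a1 gave -0.62 and 0.01, the latter at a signal of 6.35 near the dim end. The Slc25a39 probes gave 0.69 and 0.68 although their signals were 14.17 and 9.21. The brightest probes of Slc44a1, Slc43a2, Slc16a10 and Slc25a40, among others, carry no RefSeq transcript identifier on the array, whereas their dimmer probes do. Where the probes lie on each transcript was not analysed here.

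GATA-1 is known to bind sites around GATA. The 250 bases before each transcript start in RefSeq promoters of GRCm38.p6 were searched on both strands for AGATAA or AGATAG, as well as for TGATAA or TGATAG. Of 32851 promoters on the whole, 26.5% held at least 1 of these motifs. Among members with a promoter in the table, 53 of 232 promoters (22.8%, 169 genes) held 1. The share was 24.2% of 33 promoters of members that rose, 19.4% of 62 of members that fell and 24.1% of 137 of those that did not pass. The wider motif CTG, 7 to 9 bases and GATA, which overlaps the first set, was in 4.74% of member promoters and 6.13% of all. Of the 9 members that changed at least 1.5-fold, Slc26a1 was the one with a promoter in the table that held 1 of the 6-letter motifs. Its promoter at chr5:108675366-108675615 (GRCm38.p6, minus strand) is shown for that reason, with TTATCT and CTATCT, the reverse complements of AGATAA and AGATAG, in capitals.
Slc26a1 promoter: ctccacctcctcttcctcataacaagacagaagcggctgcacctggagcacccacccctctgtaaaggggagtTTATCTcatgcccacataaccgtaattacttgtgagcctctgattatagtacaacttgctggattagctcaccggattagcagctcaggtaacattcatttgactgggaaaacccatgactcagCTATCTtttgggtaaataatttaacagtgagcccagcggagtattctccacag
The first match starts 177 bases before the transcript start, and the other Slc26a1 promoter in the table held none of these but 1 match to the wider motif. A match is a string of letters and not a measured binding site.

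**Figure D5:**
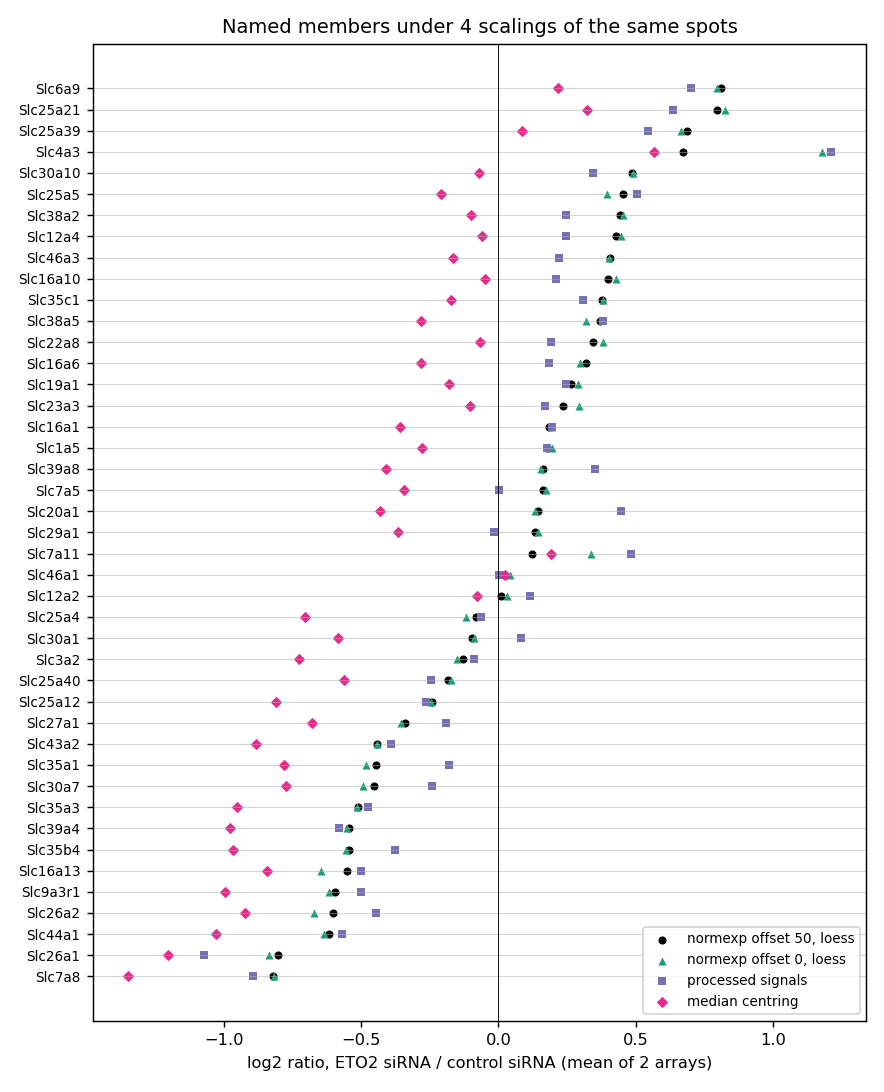
Mean log2 ratio of 2 arrays (x axis) for named solute carrier genes under 4 treatments of the same spots: normexp with an offset of 50 and loess (black, the values used above), normexp with an offset of 0 and loess (green), the scanner's processed signals (violet) and median centring (pink). Pink points lie to the left of the black ones for most genes, so that Slc30a10 moves from 0.49 to -0.07 (0.24 above the all-gene median), while Slc6a9 (0.22) stays above 0 and Slc7a8 (-0.82 in black) stays below 0 in all 4.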

How the data were processed

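Spot and background intensity values were read by Agilent Feature Extraction 9.1.3.1, per the file headers, and are linear scanner units that were not normalized. From these the software made the deposited processed signal, with background taken off and dyes balanced per array, and the deposited log10 ratio (red over green); the authors' ratio table held the same log10 values within 0.0041, with a median of 0. Signs were turned to ETO2 siRNA over control siRNA. Genome build: not given in the sources used here.

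Of 45018 features on each array, 1639 were controls. Mean signal was corrected by normexp (offset 50) and each array normalized by loess in limma 3.58.1 (R 4.3.3), with controls at weight 0. Outlier flags removed 10 and 4 spots, and the spots of 245 probes printed several times were averaged. Of 41174 probes, 24430 were well above background in 1 channel on both arrays and were kept, and a gene was its brightest kept probe under the array file's name. Of the members, 205 were measured in both channels; 2 were saturated in the control and 5 not well above background in 1 channel on both arrays, and none of those 5 passed. Names of 191 members were matched to RefSeq by accession and 21 by symbol.

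Whether the mean log2 ratio differs from 0 was tested two-sided in limma (lmFit, eBayes) and adjusted by Benjamini-Hochberg over all 16638 genes; adjusted p under 0.05 passed. With 2 arrays there is 1 residual degree of freedom, to which eBayes added 13.9 (prior SD 0.0907); a sign permutation of 2 arrays cannot go below p = 0.5, so calls rest on the shared variance. The arrays lay on 1 slide. The steps were tested on simulated data with the same noise for every probe. There 36% of 50 genes changed by 1.2-fold passed with the right sign, and 94% of 50 changed by 1.5-fold. A gene that did not pass is therefore not shown to be unchanged. Named were members that passed, had 1 sign and changed at least 1.5-fold, the 3 largest changes of each substrate group, carriers known from red cells, and members whose probes differ in sign; Slc35c1, Slc43a2, Slc25a12, Slc25a40 and Slc25a4 were added after their values were seen. Some genes under this rule are left unreported, though counts and medians still hold them. Members, lists and motifs were chosen with earlier results of these data known. Of the alternatives, 9 gave a test: processed signals, the ratio table, an offset of 0, median centring, no filter on dim probes, a filter on both channels, the mean of all probes, no saturated probes, and a variance trend.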

Additional observations from a re-analysis of the deposited data

How the results depend on the processing

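Of the 79 members that passed, 5 of 31 higher and 14 of 48 lower passed in the same direction under all 9 alternatives, and 8 and 14 did so without median centring. The 8 include the saturated Slc25a5, which was not tested under the setting without saturated probes. The scanner's processed signals gave 1201 genes higher and 1283 lower, among them 12 and 18 members, and the authors' deposited ratios gave 1151 and 1226, with 11 and 18 members. Median centring gave 466 and 10833, with 7 and 133 members, and medians of -0.31 for all genes and -0.29 for members. No filter on dim probes gave medians of -0.0055 and -0.0107, and the mean of all probes a members' median of -0.028. Under median centring the log2 ratio, with the all-gene median itself at -0.31, turned negative for Slc38a2 (-0.10), Slc25a5 (-0.21), Slc22a8 (-0.065), Slc16a10 (-0.049), Slc16a6 (-0.28), Slc30a10 (-0.072), Slc46a3 (-0.16), Slc19a1 (-0.18), Slc23a3 (-0.10), Slc7a5 (-0.34), Slc1a5 (-0.28), Slc38a5 (-0.28), Slc29a1 (-0.37), Slc16a1 (-0.36), Slc39a8 (-0.41), Slc12a4 (-0.059) and Slc20a1 (-0.43), as well as Slc35c1 (-0.17); of these, Slc7a5, Slc29a1, Slc16a1, Slc39a8 and Slc20a1 also lay below the all-gene median and the others lay 0.03 to 0.26 above it. The mean of all probes turned Slc19a1 to -0.17. The cause of these changes was not tested. Without replicate 1 or 2 a single array is left and gives values with no test. A slide block was not run because both arrays lie on 1 slide. No paired analysis was possible because each array holds both RNAs and its ratio is already the pair. The number of arrays limits the precision.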

Other observations

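Other membrane transporters were counted in the same fit. Of 28 genes of the ABC family, most of which pump substrates with ATP, 10 (35.7%) rose and 4 (14.3%) fell, against 18.4% and 22.3% of all genes, with a median log2 ratio of 0.07 (1 rose and 15 fell under median centring, 5 and 2 on the processed signals). The list includes Abce1 (0.22, passed higher), Abcf1, Abcf2 and Abcf3, which have no membrane domain and act in translation rather than transport. Abca2, a lipid transporter of lysosomes, rose by 0.67 ± 0.03 (SD, n = 2; limma, adjusted p = 1.12e-06) and stayed positive under median centring at 0.37. Abcg2, the porphyrin and drug exporter, rose by 0.58 ± 0.17 (SD, n = 2; limma, adjusted p = 1.28e-05), and its value under median centring was -0.03. The mitochondrial and porphyrin-related Abcb6 (0.49) and Abcb10 (0.25) passed higher, both below 0 under median centring (-0.07 and -0.27). Abcc4, an exporter of cyclic nucleotides, fell by 0.60 ± 0.03 (SD, n = 2; limma, adjusted p = 3.10e-06).

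Of 22 P-type pumps and their subunits, 1 (4.55%) rose, 3 (13.6%) fell and 18 did not pass. Of all genes, 18.4% were higher and 22.3% lower. Under median centring 1 pump rose and 18 fell, and on the processed signals 0 and 1. The copper pump Atp7b fell by 0.35 ± 0.10 (SD, n = 2; limma, adjusted p = 0.000528), the phospholipid flippase Atp10d by 0.32 ± 0.06 (SD, n = 2; limma, adjusted p = 0.000975) and Atp9b by 0.17. On the processed signals, where only 1 pump passed lower, Atp7b stood at -0.26 and Atp10d at -0.21. Of 7 Mfsd proteins, relatives of the carriers, 1 (14.3%) rose and 3 (42.9%) fell (0 and 6 under median centring). Of 4 Slco organic anion transporters 1 (25%) rose and 1 (25%) fell. Of the 8 carriers left out by name, Slc4a1 (2.88) and Slc25a37 (1.81) passed higher, above any member, and 3 passed lower.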
